A study of Mus musculus with 14 samples.

Results

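The S100 proteins and annexins were read from every gene whose symbol begins with S100 and a letter or with Anxa and a number, which gave 30 of the 20377 symbols in the deposited table. There were 18 S100 symbols and 12 annexins, and each gene was represented by its transcript row with the highest mean. S100pbp matched by its letters alone, since it encodes an S100P-binding protein and no S100 protein. Of the 30 genes, 25 reached at least 1 RPKM (reads normalized to transcript length and library size) in at least 4 of the 14 libraries and were tested. These 25 were 13 S100 symbols and all 12 annexins. The messenger RNA came from cells sorted from livers of C57BL/6 mice, which were chimeric adults whose mature hepatocytes carried the red fluorescent marker mTomato. Every group had received 0.1% DDC (diethoxycarbonyl dihydrocollidine), a toxicant that injures bile ducts and provokes a ductular reaction, for 5 to 8 weeks, so no uninjured group was measured. Hepatocyte-derived ductal cells (5 libraries, labelled donor) were mTomato-positive, positive for the ductal surface antigen MIC1-1C3, low in side scatter, and negative for CD11b, CD26, CD31 and CD45. Cholangiocyte-derived ductal cells (5 libraries, labelled host) had passed the same gate but were mTomato-negative, so their origin rests on the absence of the marker. Hepatocytes gave 4 libraries, with no sort markers in the labels. The labels do not say whether libraries with different numbers are different mice, so the p-values cover the spread among these libraries alone, and that spread may be technical.

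S100 proteins are small calcium sensors with paired EF-hand loops that mostly work as dimers. On binding calcium they expose a surface that grips target proteins, and some are secreted and bind receptors such as RAGE. Annexins bind phospholipid membranes in the presence of calcium and take part in membrane trafficking and in the resealing of torn membranes, and several carry an S100 dimer at their N-terminus. The best known of these complexes are annexin A2 with S100A10 and annexin A1 with S100A11. In liver, several annexins and S100 proteins are known to be more abundant in bile duct epithelium than in hepatocytes.

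Promoter windows were available for 24 of the 30 genes, as 32 windows of RefSeq (build GRCm38.p6), and the 250 bases before each gene's start were searched on both strands. The AP-1 element TGANTCA was found in 4 of the 32 windows, which is 12.5%, against 6.75% of all 32851 windows. The 4 windows with the element are shown first, because these genes were called higher in both ductal populations than in hepatocytes as deposited. That call was common, at 66.2% of all tested genes in hepatocyte-derived and 67.1% in cholangiocyte-derived cells. Anxa10 reached at least 1 RPKM in ductal libraries alone, so its calls are no support. After rescaling by median ratios S100a16 was not called in hepatocyte-derived cells, nor Anxa2 in cholangiocyte-derived ones. The nearness of the element to the start was set by the window searched. Capitals mark the AP-1 letters, and each sequence runs 5′ to 3′ on the gene's strand, ending at the base before the start. The windows are S100a16 (chr3:90540896-90541145, plus strand), S100a11 (chr3:93520246-93520495, plus strand), Anxa10 (chr8:62123194-62123443, minus strand) and Anxa2 (chr9:69453433-69453682, plus strand).
S100a16: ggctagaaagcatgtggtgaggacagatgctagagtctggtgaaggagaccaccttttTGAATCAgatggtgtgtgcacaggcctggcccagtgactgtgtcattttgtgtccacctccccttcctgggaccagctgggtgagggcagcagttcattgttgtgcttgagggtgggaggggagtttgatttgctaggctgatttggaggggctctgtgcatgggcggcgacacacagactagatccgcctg
S100a11: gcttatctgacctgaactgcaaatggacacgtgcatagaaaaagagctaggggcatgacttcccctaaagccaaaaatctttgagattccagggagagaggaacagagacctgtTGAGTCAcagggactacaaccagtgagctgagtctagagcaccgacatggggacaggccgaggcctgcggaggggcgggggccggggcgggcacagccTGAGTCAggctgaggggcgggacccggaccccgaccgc
Anxa10: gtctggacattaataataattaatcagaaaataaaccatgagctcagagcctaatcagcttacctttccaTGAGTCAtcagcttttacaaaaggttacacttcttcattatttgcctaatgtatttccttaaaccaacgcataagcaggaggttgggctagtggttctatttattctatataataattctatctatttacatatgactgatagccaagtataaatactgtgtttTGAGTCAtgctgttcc
Anxa2: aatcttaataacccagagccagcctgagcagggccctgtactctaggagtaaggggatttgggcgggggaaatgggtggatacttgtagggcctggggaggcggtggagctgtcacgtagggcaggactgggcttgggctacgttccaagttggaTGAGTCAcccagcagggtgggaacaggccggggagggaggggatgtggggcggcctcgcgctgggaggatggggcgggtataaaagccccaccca
S100a11 and Anxa10 each had a pair of matches. The window of Anxa1 (chr19:20390672-20390921, minus strand) is shown as that of a gene that separated the ductal populations; capitals mark the TEAD element GGAATG, met here on the opposite strand as CATTCC, and the TATA box TATAAA.
Anxa1: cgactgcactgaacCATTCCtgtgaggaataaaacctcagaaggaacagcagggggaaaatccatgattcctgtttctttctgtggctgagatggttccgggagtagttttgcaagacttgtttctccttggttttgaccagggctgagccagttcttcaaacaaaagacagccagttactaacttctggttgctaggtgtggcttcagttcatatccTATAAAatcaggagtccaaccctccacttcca
The TEAD element was in 4 of the 32 windows (12.5%, against 12.6% of all windows) and the TATA box was in 6 (18.8%, against 12.4%). The SP1 and KLF box GGGCGG was in 10 (31.3%, against 32.7%). None of the 4 motifs contains another, and a match describes letters in a window, with no test.

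The sorted identities held for the most part. Krt19, a keratin of bile duct epithelium, was at 23.4 to 81.8 RPKM in hepatocyte-derived ductal cells, 588 to 743 RPKM in cholangiocyte-derived ones and 0.09 to 10.4 RPKM in hepatocytes. Alb, which encodes albumin, was at 3152 to 6810 RPKM, 2034 to 3215 RPKM and 29747 to 47947 RPKM in the same order, so it was present in both ductal populations. One library stood apart from its group: hepatocyte library 118 had 1637 RPKM summed over 13 macrophage markers, against 112 to 125 RPKM in the other 3 hepatocyte libraries, and 143 RPKM summed over 10 stellate cell and fibroblast markers, against 4.75 to 7.07 RPKM. It also had the highest Krt19 of the hepatocyte libraries. Cholangiocyte-derived libraries 118 and 220 had 402 and 466 RPKM of the stellate markers, against 33.3 to 77.9 RPKM in the other 3. Sums over pan-leukocyte markers (most abundant Cybb), endothelial markers (Clec4g) and erythroid and platelet markers (Alas2) also peaked in hepatocyte library 118, at 259, 201 and 34.6 RPKM. Cybb itself did not peak there, at 46.9 RPKM against 97.1 and 112 RPKM in hepatocyte libraries 225 and 248. Alas2 was at 26.8 RPKM in hepatocyte library 118 and at 19.0, 20.5 and 7.29 RPKM in 225, 248 and 611. Lymphocyte markers (Nkg7) summed to at most 3.12 RPKM in any library. Among macrophage and stellate markers Cd14 and Dcn were the most abundant. Results that rest on these libraries are given with and without them. A scaling matter touches every comparison with hepatocytes: over all tested genes the median log2 fold change was 0.67 for hepatocyte-derived and 0.76 for cholangiocyte-derived ductal cells, and rescaling the libraries by median ratios brought these medians to 0.02 and 0.06. Of all genes called against hepatocytes, 81.7% and 79.4% were higher as deposited, 50.8% and 51.7% after rescaling, and 52.6% and 50.6% after quantile normalization. Between the ductal populations the median was -0.03, and the share of called genes that were higher was 41.9% as deposited, 47.4% after rescaling and 56.1% after quantile normalization.

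**Figure D1:**
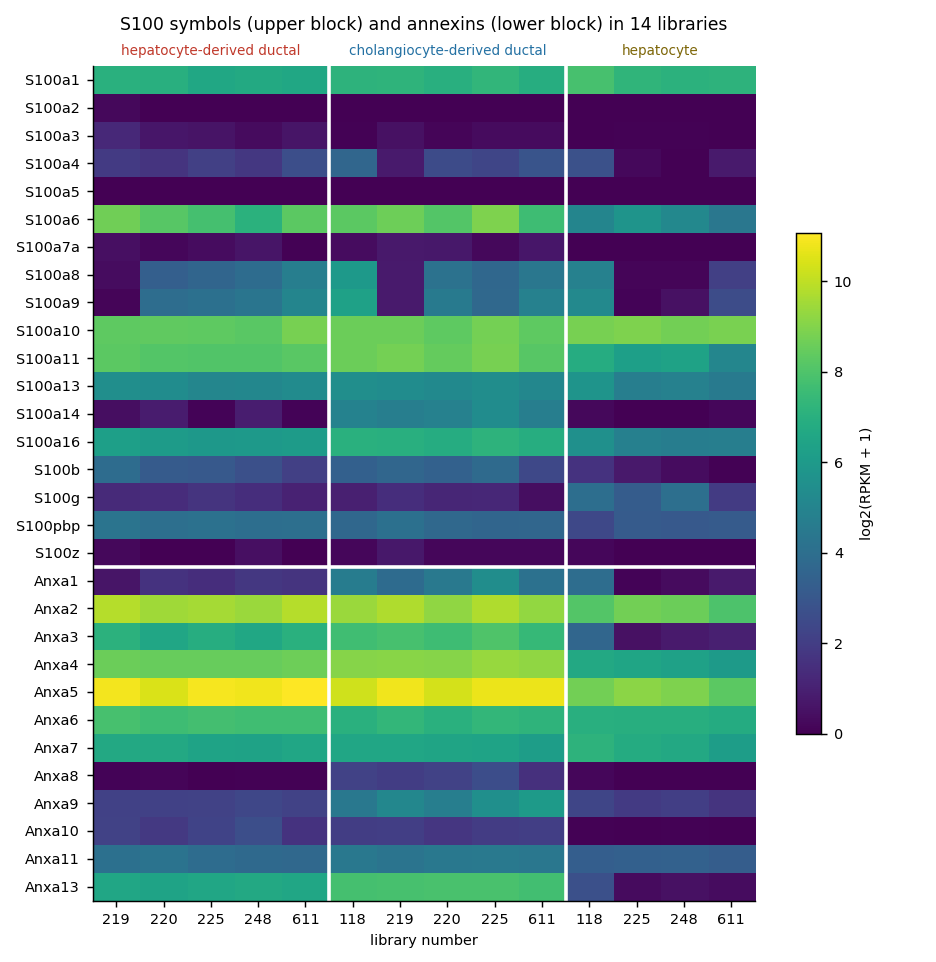
Each row is 1 of the 30 genes and each column 1 of the 14 libraries, grouped as hepatocyte-derived ductal, cholangiocyte-derived ductal and hepatocyte; colour gives log2(RPKM + 1). Anxa5, Anxa2, S100a10 and S100a11 are bright across the ductal libraries, while S100a14, Anxa1, Anxa8 and Anxa9 are brighter in the cholangiocyte-derived columns.

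Hepatocyte-derived ductal cells had more of most annexins and of several S100 genes than hepatocytes. Of the 25 tested genes, 13 were higher and 3 lower by limma at an adjusted p under 0.05, beside 66.2% higher and 14.8% lower among all 12638 genes tested. The count of higher genes was thus no larger a share than among all genes, and is not a result about these families. The 13 were Anxa2, Anxa3, Anxa4, Anxa5, Anxa6, Anxa10, Anxa11, Anxa13, S100a6, S100a11, S100a16, S100b and S100pbp, and the 3 were S100a1, S100a10 and S100g. Their median log2 fold change was 1.10 over the 25 genes, against 0.67 over all genes. After both other scalings 10 of the 13 were still higher and 2 of the 3 still lower, and Anxa6, Anxa11 and S100a16 were the 3 that did not hold. Anxa10 is among the 10, but it reached 1 RPKM in ductal libraries alone, so its call is no support for a count. Without hepatocyte library 118 and cholangiocyte-derived libraries 118 and 220, 17 genes were higher and 3 lower. Fewer cells of a type and less RNA per cell cannot be told apart in such bulk libraries.

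Cholangiocyte-derived ductal cells had 18 of the 25 genes higher than hepatocytes and 2 lower, beside 67.1% and 17.4% of all genes, again close to the background. The genes added to the list above were S100a4, S100a14, Anxa1, Anxa8 and Anxa9, and those lower were S100a10 and S100g. The median was 1.95 on the log2 scale, against 0.76 over all genes. After both other scalings 14 of the 18 were still higher, without Anxa2, Anxa6, S100a4 and S100pbp, and 1 of the 2 was still lower. The 14 include S100a14, Anxa8 and Anxa10, which passed the filter through ductal libraries alone, so their calls are no support for a count. Without the same 3 libraries 17 were higher and 1 lower, and S100a14 and Anxa8 did not reach the filter there. The same 4 hepatocyte libraries served both comparisons with hepatocytes.

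Between the ductal populations 16 of the 25 genes did not pass the test. Hepatocyte-derived ductal cells were lower than cholangiocyte-derived ones in 8 and higher in 1, beside 21% lower and 15.1% higher among all genes. The 8 were S100a14, S100a16, Anxa1, Anxa4, Anxa8, Anxa9, Anxa11 and Anxa13, and the 1 was Anxa6. S100a14 and Anxa8 reached the filter through the cholangiocyte-derived libraries alone and so had to differ, here and against hepatocytes, and their calls are no support for a count. All 9 calls also held under both other scalings, though for S100a14 and Anxa8 this is no support either. Without the 3 libraries named above 8 were lower and 2 higher, with S100pbp the gene added to those higher. In that fit S100a14 and Anxa8 no longer reached the filter, so its 8 lower genes are not the same 8. The median log2 fold change over the 25 genes, S100a14 and Anxa8 included, was -0.40, against -0.03 over all genes. The 2 S100 genes that were lower, S100a14 among them, lie next to each other among the S100 genes of chromosome 3. Of the 12 annexins 6 were lower, Anxa8 among them.

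**Figure D2:**
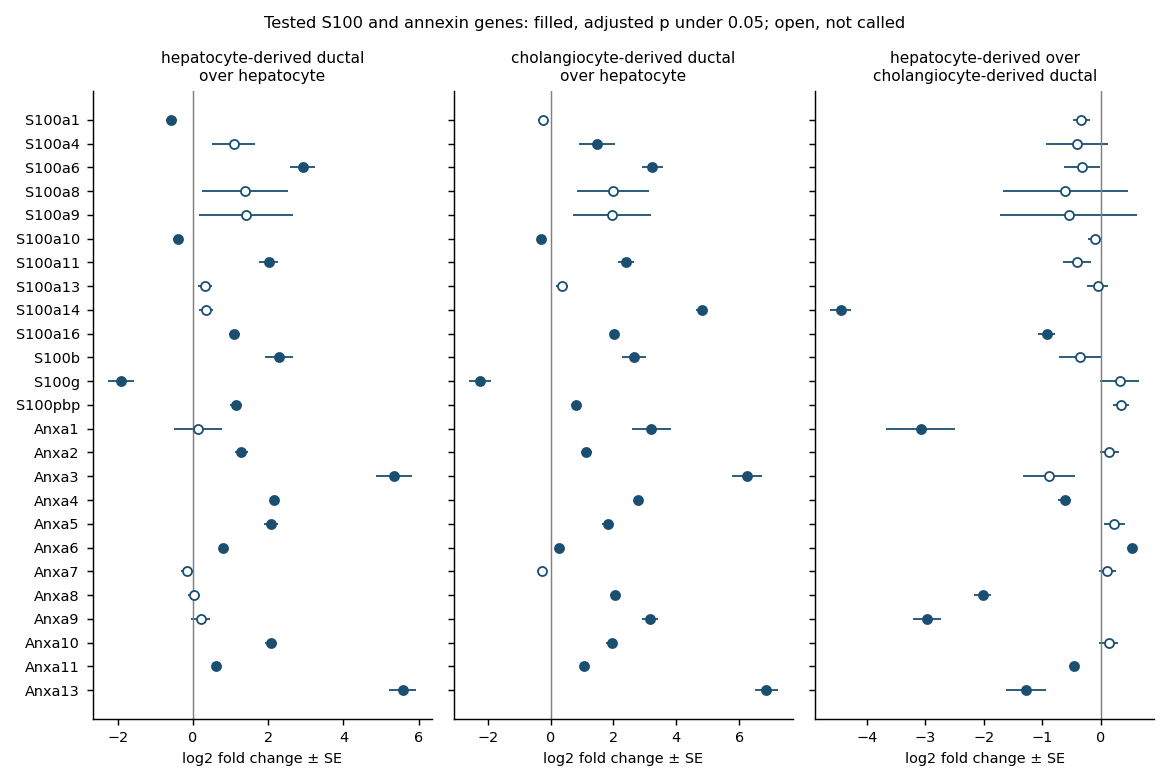
Log2 fold change with its standard error on the horizontal axis for the 25 tested genes, in hepatocyte-derived ductal cells over hepatocytes, cholangiocyte-derived ductal cells over hepatocytes, and hepatocyte-derived over cholangiocyte-derived ductal cells; filled points have an adjusted p under 0.05. S100a14, Anxa1, Anxa8 and Anxa9 lie near 0 in the left panel and between -4.46 and -2.02 in the right panel.

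The genes that separated the ductal populations most were S100a14, Anxa1, Anxa9 and Anxa8. S100a14 (mm9 chr3:90330771-90332757), an S100 protein of epithelia, had 0.34, 0.78, 0.07, 0.84 and 0.08 RPKM in hepatocyte-derived ductal libraries 219, 220, 225, 248 and 611, against 29.0, 25.6, 28.2, 40.6 and 25.6 RPKM in cholangiocyte-derived libraries 118, 219, 220, 225 and 611. Hepatocyte libraries 118, 225, 248 and 611 had 0.19, 0, 0 and 0.16 RPKM. This order of libraries is kept for all values given below. The lowest cholangiocyte-derived value was far above the highest of the other 9 libraries. The log2 fold change of hepatocyte-derived over cholangiocyte-derived ductal cells was -4.46 ± 0.17 (SE), and mean RPKM was 70.6-fold higher in the cholangiocyte-derived cells. Against hepatocytes the log2 fold change was 0.35 ± 0.18 for hepatocyte-derived cells, which did not pass the test (limma, adjusted p 0.0879). With a pseudocount of 0.1 RPKM it was 1.30 and did (adjusted p 0.0355), and it also passed without hepatocyte-derived library 225 or 611, at 0.44 each (adjusted p 0.0374 and 0.039). One read was worth an estimated 0.036 to 0.054 RPKM for this gene, so the values in those libraries rest on few reads.

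Anxa1 (chr19:20447924-20465161) encodes the glucocorticoid-induced annexin that binds formyl peptide receptors and limits inflammation. It was at 0.56, 2.10, 1.73, 2.46 and 2.14 RPKM in hepatocyte-derived ductal cells, against 24.1, 13.6, 21.1, 42.3 and 16.5 RPKM in cholangiocyte-derived ones. Hepatocytes had 14.7, 0.07, 0.25 and 0.76 RPKM, where library 118 alone reached the cholangiocyte-derived range. The ductal populations did not overlap, and the log2 fold change of hepatocyte-derived over cholangiocyte-derived cells was -3.08 ± 0.59 (limma, adjusted p 8.31e-04). Against hepatocytes, hepatocyte-derived cells were at 0.13 ± 0.63 with an adjusted p of 0.859; without hepatocyte library 118 this was 1.02 with an adjusted p of 0.0103, and with quantile normalization it was -0.81 with an adjusted p of 0.212. Cholangiocyte-derived cells were at 3.21 ± 0.63 over hepatocytes (adjusted p 2.46e-04), and at 4.10 without that library.

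Anxa9 (chr3:95100016-95111098), an annexin whose core lacks the usual calcium-binding residues, had 3.39, 3.38, 3.49, 4.13 and 3.52 RPKM in hepatocyte-derived ductal cells, against 20.7, 33.4, 25.7, 44.0 and 65.2 RPKM in cholangiocyte-derived ones. Hepatocytes had 4.00, 2.72, 3.21 and 2.18 RPKM. Hepatocyte-derived ductal cells overlapped hepatocytes, while every cholangiocyte-derived library was at least several-fold above both. The log2 fold changes were -2.97 ± 0.24 for hepatocyte-derived over cholangiocyte-derived cells (limma, adjusted p 2.35e-07) and 3.17 ± 0.25 for cholangiocyte-derived cells over hepatocytes (adjusted p 2.00e-08). The span of Anxa9 overlaps that of Fam63a on the opposite strand, and the library kit does not mark strand. Reads from any shared bases cannot be told apart, and whether exons overlap was not examined. Anxa8 (chr14:34899176-34913754), a low-abundance annexin of epithelia, was at 0.08, 0.10, 0.02, 0.04 and 0.06 RPKM in hepatocyte-derived ductal cells, against 3.54, 3.04, 3.49, 5.04 and 1.92 RPKM in cholangiocyte-derived ones and 0.15, 0.02, 0.02 and 0 RPKM in hepatocytes. Only the cholangiocyte-derived libraries carried it past 1 RPKM, as also for S100a14, so both passed the filter through that group alone. The log2 fold change of Anxa8 for hepatocyte-derived over cholangiocyte-derived cells was -2.02 ± 0.15, given as a description with no test. For hepatocyte-derived cells over hepatocytes Anxa9 was at 0.20 and Anxa8 at 0.02 (limma, adjusted p 0.47 and 0.919), and quantile normalization gave -0.80 and -0.41 (adjusted p 0.0223 and 0.0493).

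Markers of other cell types also differed between the ductal populations, compared here as groups. Over 6 mesothelial markers the summed level was 1.63 to 5.25 RPKM in hepatocyte-derived ductal libraries, against 92.4 to 159 RPKM in cholangiocyte-derived ones; hepatocytes had 0.46 to 3.30 RPKM. Both of the 2 tested markers of that list were lower in hepatocyte-derived than in cholangiocyte-derived cells. Msln, the most abundant of them, averaged 1.77 RPKM in hepatocyte-derived cells and 87.2 RPKM in cholangiocyte-derived cells, and Gpm6a averaged 1.17 and 32.8 RPKM in the same order. Upk3b, Upk1b and Lrrn4 averaged 0.17, 0.04 and 0.08 RPKM in hepatocyte-derived cells, against 1.04, 0.44 and 0.21 RPKM in cholangiocyte-derived cells. Wt1 averaged 0.55 and 0.50 RPKM. Over 10 stellate cell and fibroblast markers the sums were 9.91 to 28.9 RPKM in hepatocyte-derived libraries, against 33.3 to 466 RPKM in cholangiocyte-derived ones, and 6 of 8 tested markers were lower in hepatocyte-derived cells, beside 21% of all genes. The part of such cells in the difference was not tested. Without the 3 libraries richest in stellate cell and fibroblast transcripts (hepatocyte 118, cholangiocyte-derived 118 and 220) Anxa1 was at -3.05 for hepatocyte-derived over cholangiocyte-derived cells. The cholangiocyte-derived libraries that remained still had mesothelial sums of 92.4 to 159 RPKM, so this fit does not address mesothelial transcripts.

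**Figure D3:**
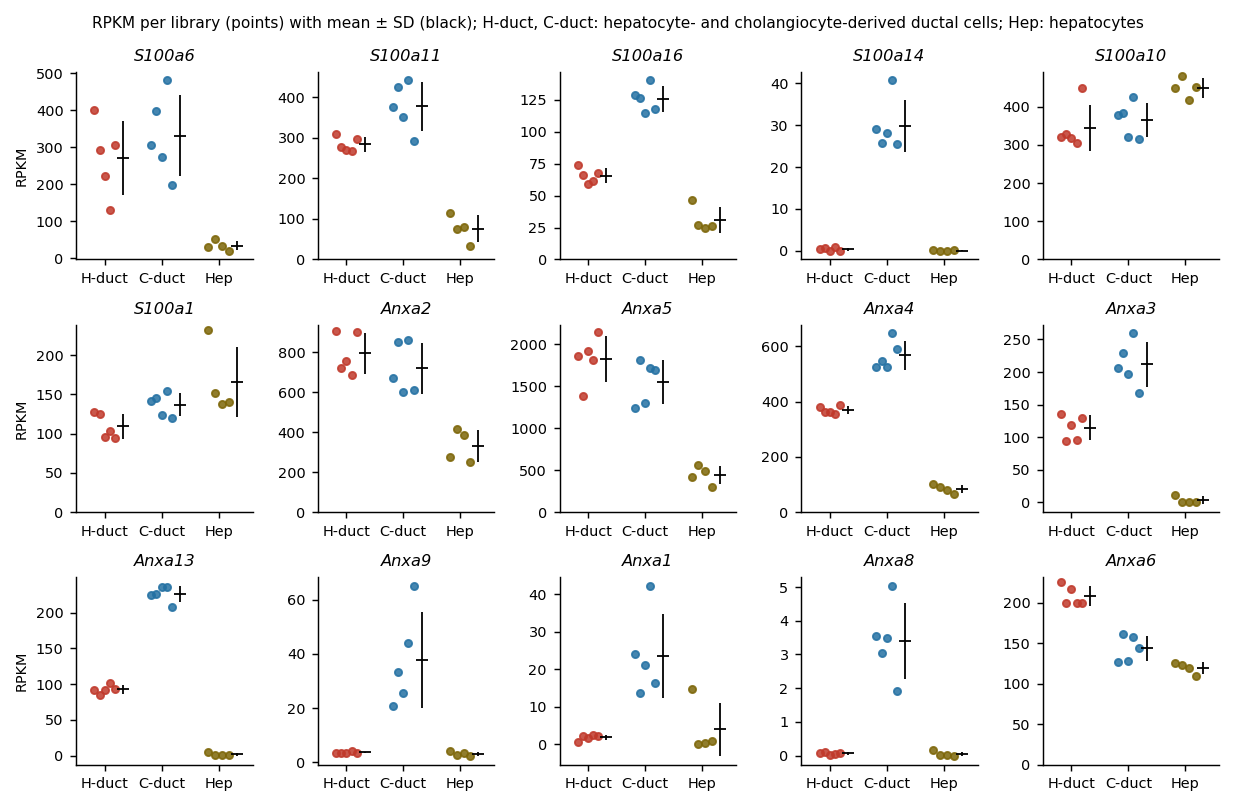
RPKM of 15 genes in each library (points), with the group mean and SD in black; hepatocyte-derived ductal cells (H-duct) are on the left of each panel, cholangiocyte-derived ductal cells (C-duct) in the middle and hepatocytes (Hep) on the right. S100a14, Anxa1, Anxa9 and Anxa8 are highest in cholangiocyte-derived cells, with Anxa1 also raised in 1 hepatocyte library, whereas Anxa2 and Anxa5 are similar in both ductal populations.

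The annexins with the largest gain in both ductal populations were Anxa13 and Anxa3. Anxa13 (chr15:58173019-58220829), the annexin of intestinal and other polarized epithelia, had 91.3, 85.4, 91.6, 101 and 92.8 RPKM in hepatocyte-derived ductal cells, 224, 227, 236, 236 and 208 RPKM in cholangiocyte-derived ones and 5.44, 0.26, 0.40 and 0.28 RPKM in hepatocytes. No 2 groups overlapped. It was higher in hepatocyte-derived cells than in hepatocytes by 5.58 ± 0.36 on the log2 scale (limma, adjusted p 4.08e-09), a 58-fold ratio of mean RPKM that became 295-fold without hepatocyte library 118. Over cholangiocyte-derived cells the log2 fold change was -1.28 ± 0.34 (adjusted p 0.00865). In the 3 pairs checked, libraries of these populations correlated best with their own number. With the library number as a block the log2 fold change was -0.94 (limma, adjusted p 0.099). With a pseudocount of 0.1 RPKM it was -1.29 (limma, adjusted p 0.0981).

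Anxa3 (chr5:97222404-97274987), known from growing rat hepatocytes in culture, had 135, 93.9, 119, 95.1 and 129 RPKM in hepatocyte-derived ductal cells, 206, 229, 197, 259.7 and 168 RPKM in cholangiocyte-derived ones and 11.7, 0.41, 0.76 and 0.95 RPKM in hepatocytes. Again no 2 groups overlapped. It was higher than in hepatocytes by 5.35 ± 0.48 in hepatocyte-derived cells (limma, adjusted p 9.83e-08) and by 6.23 ± 0.48 in cholangiocyte-derived cells (adjusted p 1.31e-08). Between the ductal populations it was at -0.89 ± 0.45 with an adjusted p of 0.146; without hepatocyte library 118, whose spread enters the shared error, the adjusted p was 1.37e-04.

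Anxa4 and Anxa5 were among the most abundant of the family in every ductal library. Anxa4 (chr6:86686834-86743578), an annexin of secretory epithelia, had 379, 361, 362, 355 and 389 RPKM in hepatocyte-derived ductal cells, 524, 546, 527, 649.6 and 591 RPKM in cholangiocyte-derived ones and 100.2, 90.0, 78.9 and 64.5 RPKM in hepatocytes. The 3 groups were separate, with log2 fold changes of 2.15 ± 0.11 for hepatocyte-derived cells over hepatocytes (limma, adjusted p 5.64e-10) and -0.62 ± 0.11 for hepatocyte-derived over cholangiocyte-derived cells (adjusted p 3.81e-04). Anxa5 (chr3:36347846-36374809) encodes the annexin used as a probe for phosphatidylserine on dying cells. It had 1862, 1388, 1917, 1807 and 2140.5 RPKM, 1244, 1807, 1298, 1717 and 1694 RPKM and 416, 556, 491 and 305 RPKM in the same order of groups, and was the highest of the 30 genes per length in every ductal library. The ductal populations overlapped, and the difference of 0.23 on the log2 scale had an interval (95%) of -0.14 to 0.61 (limma, adjusted p 0.338). Over hepatocytes Anxa5 was higher by 2.06 ± 0.19 in hepatocyte-derived cells (adjusted p 1.18e-07) and by 1.83 ± 0.19 in cholangiocyte-derived cells.

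Anxa2 (chr9:69301490-69339592), which brings plasminogen and its activator together at the cell surface and bridges membranes as a tetramer with S100A10, had 907, 724, 756, 685 and 904 RPKM in hepatocyte-derived ductal cells and 672, 850.5, 603, 864 and 612 RPKM in cholangiocyte-derived ones. Hepatocytes had 277, 415, 385 and 250.2 RPKM. Both ductal populations lay above every hepatocyte library and overlapped each other. The log2 fold change over hepatocytes was 1.28 ± 0.17 in hepatocyte-derived cells (limma, adjusted p 7.19e-06) and 1.13 ± 0.17 in cholangiocyte-derived cells (adjusted p 2.20e-05); after rescaling by median ratios these were 0.48 and 0.29, with adjusted p-values of 0.0142 and 0.104.

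S100a10 (chr3:93359039-93368567), the partner of Anxa2 that does not itself bind calcium, was lower in both ductal populations than in hepatocytes as deposited. It had 319.5, 329, 319, 304 and 449 RPKM in hepatocyte-derived ductal cells, 379.6, 384, 322, 425 and 317 RPKM in cholangiocyte-derived ones and 448, 481, 418 and 452 RPKM in hepatocytes. Hepatocyte-derived library 611 and cholangiocyte-derived library 225 lay within the hepatocyte range, and the other 8 ductal libraries lay below it. The log2 fold changes over hepatocytes were -0.40 ± 0.12 for hepatocyte-derived cells (limma, adjusted p 0.00819) and -0.31 ± 0.12 for cholangiocyte-derived cells (adjusted p 0.032), but under quantile normalization both were called higher, at 0.31 and 0.38 (adjusted p 0.0422 and 0.0137). With the library number as a block the second was -0.29 with an adjusted p of 0.112. It was also lost on leaving out cholangiocyte-derived library 220 or 611 or hepatocyte library 225 or 611, with adjusted p-values of 0.0773, 0.0753, 0.0815 and 0.0536.

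The ratio of both partners within a library depends little on how libraries are scaled. The log2 ratio of Anxa2 to S100a10 was 1.21 ± 0.18 in hepatocyte-derived cells, 0.97 ± 0.12 in cholangiocyte-derived ones and -0.47 ± 0.36 in hepatocytes (SD, n = 5, 5 and 4). Anxa2 exceeded S100a10 per length in all 10 ductal libraries and was below it in all 4 hepatocyte libraries. The difference from hepatocytes was 1.68 for hepatocyte-derived and 1.44 for cholangiocyte-derived cells, each with an exact permutation p of 0.00794, the smallest that these group sizes allow (two-sided, adjusted p 0.0159 over 12 tests). Between the ductal populations the difference of 0.24 had an adjusted p of 0.068 in the same exact test, and 0.049 without hepatocyte-derived library 611 or cholangiocyte-derived library 219.

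S100a11 and S100a6 were the S100 genes with the largest rise at high level. S100a11 (chr3:93324418-93330210), the partner of annexin A1, had 309, 278, 269, 266 and 296 RPKM in hepatocyte-derived ductal cells, 376, 426, 351, 442 and 292 RPKM in cholangiocyte-derived ones and 114, 75.2, 80.8 and 33.1 RPKM in hepatocytes. Every ductal library was above every hepatocyte library. It was higher by 2.01 ± 0.26 in hepatocyte-derived cells (limma, adjusted p 4.11e-06) and by 2.41 ± 0.26 in cholangiocyte-derived cells (adjusted p 4.95e-07). S100a6 (chr3:90416816-90418336), or calcyclin, which binds the ubiquitin ligase adaptor encoded by Cacybp and annexin A11, had 401, 294, 222, 132 and 307 RPKM, 306, 397, 274, 481 and 199 RPKM and 31.9, 52.2, 34.7 and 20.04 RPKM in the same order of groups. Its ductal values varied widely and overlapped between the populations, and all were above hepatocytes, by 2.91 ± 0.33 in hepatocyte-derived cells (limma, adjusted p 1.40e-06) and 3.23 ± 0.33 in cholangiocyte-derived cells (adjusted p 3.68e-07).

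The pair S100a11 and Anxa1 was thus unequal between the ductal populations. The log2 ratio of Anxa1 to S100a11 was -6.72 ± 0.53 in hepatocyte-derived and -4.04 ± 0.54 in cholangiocyte-derived ductal cells, a difference of -2.68 (exact permutation test, adjusted p 0.0159). In hepatocytes it was -4.83 ± 1.56, where library 118 and library 611 set the upper end. The difference of hepatocyte-derived cells from hepatocytes, -1.88 with an adjusted p of 0.0159 in the exact permutation test, became -1.14 with an adjusted p of 0.629 with a pseudocount of 0.1 RPKM. For Anxa11 and S100a6 the log2 ratio was -4.06 ± 0.54, -3.92 ± 0.49 and -1.74 ± 0.50 in hepatocyte-derived ductal cells, cholangiocyte-derived ductal cells and hepatocytes. Both ductal populations were below hepatocytes, with differences of -2.31 and -2.18 (exact permutation test, adjusted p 0.0159 each), and they differed from each other by -0.14 (exact permutation test, adjusted p 0.905).

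**Figure D4:**
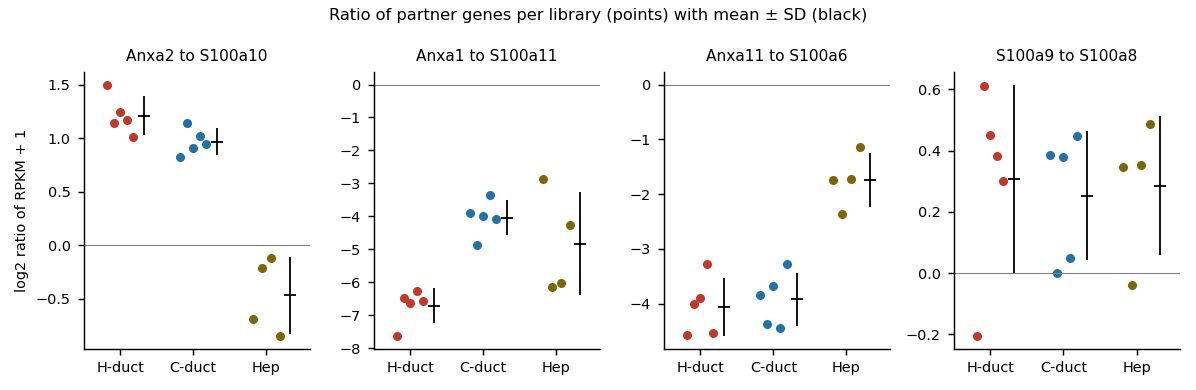
Log2 ratio of RPKM + 1 for 4 pairs of partner genes in each library (points), with mean and SD in black, for hepatocyte-derived ductal cells, cholangiocyte-derived ductal cells and hepatocytes from left to right. The ratio of Anxa2 to S100a10 is above 0 in all 10 ductal libraries and below 0 in all 4 hepatocyte libraries.

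Of the remaining genes with intermediate values, S100a16 (chr3:90345145-90347073), a widely expressed S100 protein, had 74.0, 65.8, 59.3, 61.4 and 67.3 RPKM in hepatocyte-derived ductal cells, 128, 126, 114, 141 and 118 RPKM in cholangiocyte-derived ones and 46.2, 27.0, 24.9 and 25.8 RPKM in hepatocytes. The 3 groups did not overlap. Its log2 fold change was -0.93 ± 0.14 for hepatocyte-derived over cholangiocyte-derived cells (limma, adjusted p 1.14e-04) and 1.10 ± 0.15 for hepatocyte-derived cells over hepatocytes (adjusted p 8.24e-06). The value against hepatocytes was 0.32 with an adjusted p of 0.0634 after rescaling by median ratios. Anxa11 (chr14:26661641-26706290), which tethers RNA granules to membranes in neurons, was at 12.3 to 17.4 RPKM in hepatocyte-derived ductal cells, 18.2 to 21.3 RPKM in cholangiocyte-derived ones and 8.49 to 9.87 RPKM in hepatocytes. Its log2 fold change was -0.45 ± 0.09 for hepatocyte-derived over cholangiocyte-derived cells (limma, adjusted p 0.00111). Its difference of 0.60 ± 0.10 from hepatocytes turned to -0.14 after rescaling and -0.15 after quantile normalization. Cholangiocyte-derived cells were higher than hepatocytes by 1.05 ± 0.10 (adjusted p 9.41e-08).

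As a description of where hepatocyte-derived cells lay between hepatocytes and cholangiocyte-derived cells, the difference from hepatocytes was divided by that of cholangiocyte-derived cells, both as mean log2(RPKM + 1). Hepatocyte-derived cells had covered 0.93% of the distance for Anxa8, 4.08% for Anxa1, 6.41% for Anxa9 and 7.33% for S100a14. The low share of Anxa1 depended on hepatocyte library 118. Its differences from hepatocytes were 0.13 in hepatocyte-derived and 3.21 in cholangiocyte-derived cells, and 1.02 and 4.10 without that library. For S100a16 and Anxa11 the share was 54.3% and 57.0%. It was 77.8% for Anxa4, 81.3% for Anxa13, 83.5% for S100a11, 85.8% for Anxa3 and 90.2% for S100a6. For Anxa10, Anxa2 and Anxa5 it was above the full distance, at 107%, 113% and 113%. It was 72.7% for S100a4, 86.6% for S100b and 85.4% for S100g. For S100a10, S100pbp and Anxa6 it was 130.2%, 144% and 311%, where a small distance makes the share unstable. S100pbp was at 1090% after rescaling by median ratios and -287% after quantile normalization, and Anxa6 at 0.77% and 198%. After rescaling by median ratios S100a14, Anxa1, Anxa8 and Anxa9 were at 5.41%, -9.36%, -1.16% and -17.0%, S100a16 at 26.2% and Anxa11 at -51.9%, while Anxa4, Anxa13, S100a11, Anxa3 and S100a6 were at 70.0% to 88.3%. Anxa2 was at 163% there. Quantile normalization put S100a14, Anxa1, Anxa8 and Anxa9 at -2.59%, -36.6%, -37.4% and -34.7%, Anxa2 at 104% and Anxa5 at 94.3%.

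Anxa6 was the gene that was higher in hepatocyte-derived than in cholangiocyte-derived cells. Anxa6 (chr11:54792464-54846973), a double-length annexin tied to membrane cholesterol and endocytosis, had 226, 199, 217, 200.4 and 200.3 RPKM in hepatocyte-derived ductal cells, 127, 161, 128, 158 and 144 RPKM in cholangiocyte-derived ones and 126, 123, 119.9 and 109.9 RPKM in hepatocytes. The lowest hepatocyte-derived library was above the highest of either other group. The log2 fold change over cholangiocyte-derived cells was 0.54 ± 0.08 (limma, adjusted p 1.19e-04), and 0.43 to 0.62 under all alternatives tried. Over hepatocytes it was 0.80 ± 0.09 in hepatocyte-derived cells, which became -0.0045 on rescaling by median ratios, and 0.26 ± 0.09 in cholangiocyte-derived cells, which turned to -0.58 on rescaling.

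Among the other genes higher in both ductal populations, Anxa10, an annexin of gastric epithelium, was at 2.10 to 5.38 RPKM in hepatocyte-derived cells, 2.40 to 3.20 RPKM in cholangiocyte-derived cells and listed at 0 or 0.04 RPKM in hepatocytes. Its log2 fold changes over hepatocytes were 2.08 ± 0.16 and 1.94 ± 0.16 in that order, given as a description with no test. Only ductal libraries carried Anxa10 past 1 RPKM, so it passed the filter through the groups in which it was high. S100b, a ligand of RAGE best known from astrocytes, was at 3.22 to 14.2 RPKM, 4.33 to 13.3 RPKM and 0.05 to 2.07 RPKM in hepatocyte-derived ductal cells, cholangiocyte-derived ductal cells and hepatocytes, with no overlap of either ductal population with hepatocytes. Its log2 fold changes over hepatocytes were 2.29 ± 0.38 and 2.64 ± 0.38 (limma, adjusted p 6.67e-05 and 1.43e-05). S100pbp, the S100P-binding protein gene, was at 15.2 to 17.9 RPKM, 11.1 to 15.7 RPKM and 4.23 to 8.13 RPKM in the same order; its value of 0.79 for cholangiocyte-derived cells over hepatocytes turned to -0.12 under quantile normalization.

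The S100 genes highest in hepatocytes were S100a10, S100a1 and S100g. S100a1 (chr3:90314956-90318252), a regulator of calcium cycling in heart muscle, had 128, 124, 96.0, 103 and 94.5 RPKM in hepatocyte-derived ductal cells, 142, 146, 124, 154 and 119.6 RPKM in cholangiocyte-derived ones and 232, 152, 138 and 140.1 RPKM in hepatocytes. Hepatocyte-derived cells were below every hepatocyte library, at -0.57 ± 0.15 on the log2 scale (limma, adjusted p 0.00298), while cholangiocyte-derived cells overlapped hepatocytes, at -0.24 ± 0.15 (adjusted p 0.147). After rescaling by median ratios these were -1.37 and -1.08 (adjusted p 1.07e-06 and 9.59e-06), so the second was called lower, and after quantile normalization -0.26 and 0.12 (adjusted p 0.0391 and 0.317). The difference between the ductal populations was -0.33 ± 0.14 (limma, adjusted p 0.0911) and passed the test without hepatocyte library 118, with an adjusted p of 0.0158. S100g (chrX:159399924-159402531), a vitamin D-regulated calcium-binding protein of intestine, had 1.51, 1.68, 2.15, 1.71 and 1.07 RPKM, 0.97, 1.70, 1.27, 1.38 and 0.34 RPKM and 14.8, 8.35, 15.3 and 2.78 RPKM in hepatocyte-derived ductal cells, cholangiocyte-derived ductal cells and hepatocytes. Its log2 fold changes over hepatocytes were -1.91 ± 0.35 and -2.24 ± 0.35 (limma, adjusted p 1.58e-04 and 3.19e-05). The span of S100g overlaps that of Ctps2 on the opposite strand. Reads from any shared bases cannot be told apart, and whether exons overlap was not examined.

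S100a13 and Anxa7 did not pass the test as deposited in any comparison, but the calls against hepatocytes depended on the scaling. S100a13, which takes part in the export of growth factors that lack a signal peptide, was at 32.3 to 42.7 RPKM in hepatocyte-derived cells, 33.7 to 43.0 RPKM in cholangiocyte-derived cells and 22.4 to 51.6 RPKM in hepatocytes, where library 118 was the highest. Without that library its log2 fold changes over hepatocytes were 0.56 and 0.61 in hepatocyte-derived and cholangiocyte-derived cells (limma, adjusted p 2.83e-04 and 1.19e-04), whereas rescaling by median ratios made both lower, at -0.47 and -0.45 (adjusted p 0.0281 and 0.0318). Anxa7, or synexin, was at 81.3 to 102 RPKM, 71.5 to 93.0 RPKM and 70.3 to 142 RPKM in the same order. With the library number as a block its log2 fold change for cholangiocyte-derived cells over hepatocytes was -0.35 (limma, adjusted p 0.048). After rescaling by median ratios Anxa7 was called lower in both ductal populations than in hepatocytes, at -0.96 and -1.11 (limma, adjusted p 3.65e-05 and 7.11e-06), and it was at -0.34 and -0.46 without hepatocyte library 611 (adjusted p 0.0193 and 0.00331). The interval (95%) of its difference between the ductal populations was -0.20 to 0.43 on the log2 scale.

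S100a8 and S100a9, the subunits of calprotectin, are abundant in neutrophils and monocytes and were read as myeloid markers. S100a8 (chr3:90472993-90473956) had 0.28, 9.29, 11.4, 14.2 and 25.6 RPKM in hepatocyte-derived ductal cells, 60.9, 0.74, 17.0, 12.0 and 20.1 RPKM in cholangiocyte-derived ones and 28.1, 0.12, 0.12 and 3.25 RPKM in hepatocytes. S100a9 (chr3:90496555-90499613) had 0.11, 14.7, 15.9, 18.9 and 31.8 RPKM, 79.8, 0.74, 22.4, 12.5 and 27.8 RPKM and 36.0, 0.09, 0.43 and 4.95 RPKM in the same order. Both ductal libraries numbered 219 were below 1 RPKM for both genes, and both libraries numbered 118 were the highest of their group. The log2 ratio of S100a9 to S100a8 had similar means, at 0.31 ± 0.31, 0.25 ± 0.21 and 0.29 ± 0.23 for hepatocyte-derived ductal cells, cholangiocyte-derived ductal cells and hepatocytes (SD, n = 5, 5 and 4). No comparison of either gene passed limma's test over all libraries, with adjusted p-values of 0.118 to 0.762. Without hepatocyte library 118 cholangiocyte-derived cells were higher than hepatocytes by 3.00 for S100a8 and 2.99 for S100a9 (limma, adjusted p 0.0172 and 0.0309), and with the library number as a block by 2.58 and 2.64 (adjusted p 3.29e-04 and 4.95e-04).

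Neutrophil markers were set beside these genes. Over 11 neutrophil markers the summed level was 0.35 RPKM in hepatocyte-derived library 219 and 4.43 to 7.03 RPKM in the other 4, against 1.00 RPKM in cholangiocyte-derived library 219 and 5.89 to 17.8 RPKM in the other 4. Hepatocyte library 118 had 4.92 RPKM, and the other 3 had 0.12 to 1.11 RPKM. Csf3r, the granulocyte colony-stimulating factor receptor and the most abundant neutrophil marker, averaged 1.55 ± 0.86 RPKM, 3.46 ± 3.01 RPKM and 0.60 ± 0.90 RPKM in hepatocyte-derived ductal cells, cholangiocyte-derived ductal cells and hepatocytes (SD, n = 5, 5 and 4). The macrophage sums were 98.1 RPKM in hepatocyte-derived library 219 and 211 to 278 RPKM in the other 4, against 331 RPKM in cholangiocyte-derived library 219 and up to 856 RPKM in the other 4. Of these sums Cd14 and Csf1r made up 72.5 and 22.8 RPKM in hepatocyte-derived library 219, and 281 and 43.0 RPKM in cholangiocyte-derived library 219. Most other macrophage markers were near 0 in both libraries numbered 219, as S100a8 and S100a9 were: Lyz2 was at 0.70 and 1.39 RPKM there, C1qa at 0.08 and 0.43 RPKM, and Cd5l at 0.11 and 0.39 RPKM. In the libraries numbered 118 Lyz2 was at 181 RPKM in cholangiocyte-derived cells and 589 RPKM in hepatocytes, the highest of each group. S100a4 (chr3:90407692-90409967), which binds the heavy chain of non-muscle myosin and is found in fibroblasts and leukocytes, had 2.67, 2.13, 3.27, 2.51 and 5.38 RPKM, 11.4, 0.72, 4.76, 3.95 and 6.33 RPKM and 5.67, 0.17, 0 and 0.75 RPKM in hepatocyte-derived ductal cells, cholangiocyte-derived ductal cells and hepatocytes. It was again highest in both libraries numbered 118. Its log2 fold change of 1.48 ± 0.56 for cholangiocyte-derived cells over hepatocytes (limma, adjusted p 0.0242) was lost without cholangiocyte-derived library 118, with a value of 1.18 and an adjusted p of 0.0642. It was also lost without cholangiocyte-derived library 611 or hepatocyte library 225, 248 or 611, with adjusted p-values of 0.0504, 0.0755, 0.0849 and 0.0506. For hepatocyte-derived cells over hepatocytes S100a4 was at 1.08 ± 0.56 (adjusted p 0.0916), and at 1.68 without hepatocyte library 118 (adjusted p 0.0047). The part of myeloid or stromal transcripts in these S100 values was not tested.

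**Figure D5:**
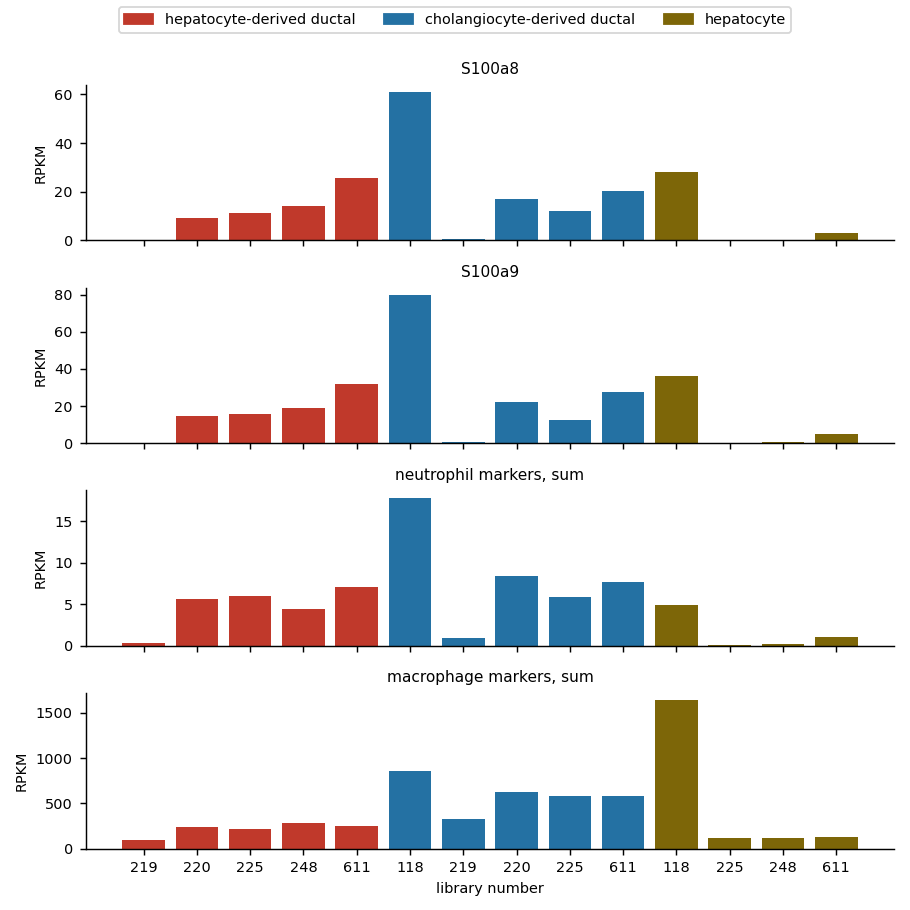
RPKM of S100a8, of S100a9, of 11 neutrophil markers summed and of 13 macrophage markers summed in each library; hepatocyte-derived ductal libraries are on the left, cholangiocyte-derived ones in the middle and hepatocytes on the right. S100a8 and S100a9 are below 1 RPKM in both ductal libraries numbered 219 and highest in cholangiocyte-derived library 118, while the macrophage sum is highest, at 1637 RPKM, in hepatocyte library 118.

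The remaining 5 of the 30 genes did not pass the filter on low values and were not tested. S100a5 was listed at 0 in all 14 libraries, and S100a2 was above 0 only in hepatocyte-derived library 219, at 0.17 RPKM. S100a3 was at 0.24 to 1.40 RPKM in hepatocyte-derived ductal cells, 0.06 to 0.41 RPKM in cholangiocyte-derived ones and 0 to 0.06 RPKM in hepatocytes, so the hepatocyte-derived and hepatocyte values did not overlap. S100a7a, related to human psoriasin, was at 0.06 to 0.55 RPKM and 0.17 to 0.67 RPKM in the ductal populations in that order and was listed at 0 in all 4 hepatocyte libraries. S100z was at 0 to 0.62 RPKM in all libraries.

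Most S100 genes sit together on mouse chromosome 3, inside the epidermal differentiation region. In mm9, 12 of them from S100a1 (start 90314956) to S100a9 (end 90499613) lie within one stretch, and S100a11 and S100a10 follow near position 93324418. Neighbours in the row differed: S100a13 did not pass the test between the ductal populations, S100a14 and S100a16 were lower in hepatocyte-derived cells, and S100a2, S100a3 and S100a5 were near or at 0. S100a1 and S100a13 lie head to head on opposite strands, 429 bases apart. A list of that region gave 19 genes, among them S100pbp, which lies on chromosome 4 and is already counted among the S100 symbols. Of the 19, 8 were tested, S100pbp included. In hepatocyte-derived cells 5 were higher and 1 lower than in hepatocytes, beside 66.2% and 14.8% of all genes. In cholangiocyte-derived cells 6 were higher and 0 lower than in hepatocytes, beside 67.1% and 17.4% of all genes. S100pbp was among the higher genes in both comparisons. Between the ductal populations 0 were higher and 2 lower in hepatocyte-derived cells, beside 15.1% and 21% of all genes. The cornified-envelope gene Sprr1a averaged 77.7 RPKM, 132 RPKM and 220.3 RPKM in hepatocyte-derived ductal cells, cholangiocyte-derived ductal cells and hepatocytes, with a log2 fold change of -1.62 for hepatocyte-derived cells over hepatocytes (limma, adjusted p 0.0097).

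The proteins that S100 proteins bind were described from a list of receptors and targets. Of 16 tested genes, 12 were higher and 1 lower in hepatocyte-derived cells than in hepatocytes, 14 higher and 2 lower in cholangiocyte-derived cells than in hepatocytes, and 3 higher and 4 lower in hepatocyte-derived than in cholangiocyte-derived cells. Their median log2 fold changes were 0.84, 1.26 and 0.15 in that order. Over all genes the shares called higher and lower were 66.2% and 14.8%, 67.1% and 17.4%, and 15.1% and 21% in these comparisons, and the medians 0.67, 0.76 and -0.03. Ager, which encodes the receptor RAGE, averaged 13.9 ± 2.98 RPKM in hepatocyte-derived ductal cells, 7.30 ± 2.25 RPKM in cholangiocyte-derived ones and 0.18 ± 0.08 RPKM in hepatocytes (SD, n = 5, 5 and 4). Its log2 fold change was 3.64 for hepatocyte-derived cells over hepatocytes (limma, adjusted p 2.40e-10) and 0.86 over cholangiocyte-derived cells. Plat, tissue plasminogen activator, was higher in hepatocyte-derived cells than in hepatocytes by 4.03 and Trp53 by 2.06, while Plg, which encodes plasminogen and is made by hepatocytes, was at -3.10 (limma, adjusted p 1.02e-09, 4.00e-09 and 4.46e-09).

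The receptors and partners of annexins were read the same way. Of 14 tested genes of 17 found, 10 were higher and 1 lower in hepatocyte-derived cells than in hepatocytes, 11 higher and 2 lower in cholangiocyte-derived cells than in hepatocytes, and 2 higher and 2 lower in hepatocyte-derived than in cholangiocyte-derived cells, with medians of 1.08, 1.01 and 0.08. Over all genes 66.2%, 67.1% and 15.1% were higher and 14.8%, 17.4% and 21% lower, with the medians given for the S100 list. Cd44, a hyaluronan receptor, averaged 213 ± 44.3 RPKM in hepatocyte-derived cells, 166 ± 40.1 RPKM in cholangiocyte-derived cells and 11.8 ± 2.89 RPKM in hepatocytes. It was higher in hepatocyte-derived cells than in hepatocytes by 4.07 (limma, adjusted p 3.80e-10), the actin crosslinker Actn4 by 1.21, the annexin A7 partner Sri (sorcin) by 1.22 and the ion channel kinase Trpm7 by 1.08. Values of the S100 and annexin partner lists are as deposited, where the median over all genes was 0.67. They are not given under the other scalings. The formyl peptide receptors Fpr1 and Fpr2, receptors of annexin A1, averaged under 1 RPKM in every group and were not tested, and Fpr3 was listed at 0 in all libraries.

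Genes of membrane repair and other EF-hand proteins were set beside both families. Of 17 tested membrane repair genes, 15 were higher and 1 lower in hepatocyte-derived cells than in hepatocytes, 15 higher and 0 lower in cholangiocyte-derived cells than in hepatocytes, and 1 higher and 5 lower in hepatocyte-derived than in cholangiocyte-derived cells, with medians of 1.11, 1.17 and -0.14. All genes had 66.2%, 67.1% and 15.1% higher and 14.8%, 17.4% and 21% lower, with medians of 0.67, 0.76 and -0.03. The membrane-shaping ATPase gene Ehd2 was higher in hepatocyte-derived cells than in hepatocytes by 4.26, the ferlin Myof by 4.92, caveolin gene Cav1 by 5.62 and the ESCRT subunit Chmp4c by 3.10 (limma, adjusted p 4.73e-12, 3.60e-11, 1.86e-10 and 2.16e-10). Cav1 was the 1 that was higher in hepatocyte-derived than in cholangiocyte-derived cells, at 174 ± 47.5 RPKM against 76.2 ± 17.7 RPKM (SD, n = 5 each). Of 16 other tested EF-hand genes, 13 were higher and 1 lower in hepatocyte-derived cells than in hepatocytes, 13 higher and 1 lower in cholangiocyte-derived cells, and 2 higher and 4 lower in hepatocyte-derived than in cholangiocyte-derived cells, with medians of 1.06, 1.27 and -0.10, beside the same shares and medians over all genes (66.2%, 67.1% and 15.1% higher). The reticulum calcium-binding protein gene Rcn1 was higher in hepatocyte-derived cells than in hepatocytes by 3.39, the calmodulin genes Calm3 and Calm2 by 1.08 and 1.22, and Sri by 1.22 (limma, adjusted p 1.20e-09, 1.14e-08, 3.00e-07 and 1.56e-07). Values of the membrane repair and EF-hand lists are likewise as deposited and not given under the other scalings.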

How the data were processed

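RNA was measured in 14 libraries from 3 liver cell populations. The authors deposited a table of RPKM values (reads normalized to transcript length and library size), rounded to 2 decimals, with 26005 transcript rows. The submitters' processing notes name the build mm9 and the tools Bowtie 0.12.7 and CASAVA. How reads were counted and how multiple matches were handled is not given in the sources used here. Per the labels' protocols, 75 to 200 ng of total RNA went into TruSeq v2 libraries, a kit that does not mark strand. The number 220 heads 2 columns for which the titles left over say 120, and only the group of these columns was taken as known. All 4 hepatocyte libraries were used, though the series' design text speaks of 3. RPKM keeps no read totals; the smallest steps between values gave an estimated 17450000 to 26350000 reads per library, with transcript lengths from GENCODE vM21. No pair of libraries shared more than 2.14% identical values above 0.

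On the log2(RPKM + 1) scale, groups were compared by limma 3.58.1 (R 4.3.3) in a model of the 3 groups over all libraries with a mean-variance trend, over the 12638 symbols that reached 1 RPKM in 4 or more libraries; the Benjamini-Hochberg adjustment ran over all of them, and an adjusted p under 0.05 was called. A fold change on this scale understates the change of low genes; where a ratio is printed it is of mean RPKM. Ratios of partner genes, as log2 of RPKM + 1, were compared by exact permutation tests, two-sided, adjusted over 12 tests (Python 3.11.15, scipy 1.17.1). The steps were tested on simulated data. The members, the gene lists and the tests were chosen with earlier results of these data known. Every member is named, with up to 4 genes per partner list by the smallest adjusted p, the most abundant marker per other cell type, and Alb, Krt19, Epcam and Spp1 as identity checks. Genes named beyond this rule (the mesothelial markers other than Msln, the macrophage markers Csf1r, Lyz2, C1qa and Cd5l, and Sprr1a, Fpr1, Fpr2 and Fpr3) were chosen after their values were seen. Epcam averaged 85.3, 545 and 2.88 RPKM and Spp1 17559.8, 18618 and 938 RPKM in hepatocyte-derived ductal cells, cholangiocyte-derived ductal cells and hepatocytes.

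Library numbers shared between populations were checked for pairing by the correlation of deviations from the group means over all tested genes. It was 0.212 to 0.797 over 3 pairs of the ductal populations, best with the own number in 3 of 3. For hepatocyte-derived library 225 the margin was small, at 0.212 against 0.202 with cholangiocyte-derived library 118. The number 220, which is in no title, was left out of these pairs. Hepatocyte-derived library 220 was at 0.428 with cholangiocyte-derived library 220 and at 0.464 with cholangiocyte-derived library 118. Over 3 pairs of cholangiocyte-derived cells and hepatocytes it was 0.133 to 0.512, best with the own number in 2 of 3. The numbers that come from the titles thus went with a pairing of the ductal populations in these 3 pairs. They did so less clearly for cholangiocyte-derived cells and hepatocytes, and the columns numbered 220 were not best with each other on both sides.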

Additional observations from a re-analysis of the deposited data

Results flagged for a closer look

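In groups of 4 or 5 libraries a single value far from the others was looked for in each of the 25 tested genes. Of 75 groups 13 had one. The limit used flags about 1 in 20 groups of normally distributed values. RPKM need not be so distributed, and groups that share libraries are not independent, so that share is only nominal. Hepatocyte library 118 was the highest in 9 of the 13. It had 14.7 RPKM of Anxa1, against 0.07 to 0.76 RPKM in the other 3 hepatocyte libraries, 5.44 RPKM of Anxa13 (others 0.26 to 0.40) and 11.7 RPKM of Anxa3 (others 0.41 to 0.95). It also had 0.15 RPKM of Anxa8 (others 0 to 0.02), 232 RPKM of S100a1 (others 138 to 152), 46.2 RPKM of S100a16 (others 24.9 to 27.0) and 5.67 RPKM of S100a4 (others 0 to 0.75). S100a8 was at 28.1 RPKM (others 0.12 to 3.25) and S100a9 at 36.0 RPKM there (others 0.09 to 4.95). The same library had the highest sums of macrophage, endothelial and stellate cell markers among hepatocytes and 10.4 RPKM of Krt19, against 0.09 to 0.67 RPKM in the others; the part of such transcripts in these 9 values was not tested.

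Among hepatocyte-derived ductal cells, library 248 had 4.13 RPKM of Anxa9 (others 3.38 to 3.52) and library 611 had 449 RPKM of S100a10 (others 304 to 329). Among cholangiocyte-derived ductal cells, library 225 had 40.6 RPKM of S100a14 (others 25.6 to 29.0) and library 219 had 15.7 RPKM of S100pbp (others 11.1 to 12.3).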

How the results depend on the processing

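The results were recomputed under 25 alternative fits. After rescaling by median ratios, all-gene calls in hepatocyte-derived ductal cells over hepatocytes were 4735 higher and 4590 lower, and in cholangiocyte-derived cells over hepatocytes 5132 higher and 4798 lower; 5 and 6 of the S100 and annexin genes were lower in those comparisons. Quantile normalization gave 4596 and 4136, 4891 and 4769, and 3069 higher between the ductal populations, with 1 gene of the families lower in cholangiocyte-derived cells than in hepatocytes and 2 higher in hepatocyte-derived than in cholangiocyte-derived cells. Library weights gave 2987 genes higher between the ductal populations and 4 of the families. The count lower in cholangiocyte-derived cells than in hepatocytes was also 1 with a minimum of 5 RPKM and without the 3 libraries rich in other transcripts. The count higher in hepatocyte-derived than in cholangiocyte-derived cells was also 2 with a pseudocount of 5 RPKM, with no filter, in the fit of 2 groups and without those 3 libraries. Leaving out a library gave 1 to 2 for both.

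Among values called as reported, signs turned after rescaling for Anxa11 (-0.14) and Anxa6 (-0.0045) in hepatocyte-derived cells over hepatocytes and for Anxa6 (-0.58) in cholangiocyte-derived cells over hepatocytes. Signs of called values turned under quantile normalization for Anxa11 (-0.15) and S100a10 (0.31) in hepatocyte-derived cells and for S100a10 (0.38) and S100pbp (-0.12) in cholangiocyte-derived cells; the cause was not tested. The log2 ratio of Anxa1 to S100a11 with a pseudocount of 0.1 RPKM was -1.14 for hepatocyte-derived cells minus hepatocytes, and with 5 RPKM -0.47 for cholangiocyte-derived cells minus hepatocytes. The ratio of S100a9 to S100a8 moved to -0.30 and -0.062 (hepatocyte-derived minus hepatocytes, minus cholangiocyte-derived) with 0.1 RPKM and to 0.06 (cholangiocyte-derived minus hepatocytes) with 5 RPKM.

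Leaving out a library gave, for hepatocyte-derived cells minus hepatocytes, cholangiocyte-derived cells minus hepatocytes and hepatocyte-derived minus cholangiocyte-derived cells in this order, 1.55 to 1.80, 1.31 to 1.55 and 0.17 to 0.29 for Anxa2 to S100a10. The ranges were -2.32 to -1.23, 0.36 to 1.45 and -2.89 to -2.45 for Anxa1 to S100a11, -2.52 to -2.12, -2.38 to -1.98 and -0.33 to 0.027 for Anxa11 to S100a6, and -0.087 to 0.15, -0.14 to 0.032 and -0.020 to 0.18 for S100a9 to S100a8. For Anxa2 to S100a10 and Anxa11 to S100a6, leaving out 1 library of the ductal population compared with hepatocytes gave an adjusted p of 0.0571 in 4 of 5 cases and 0.049 in the fifth (hepatocyte-derived library 611 or cholangiocyte-derived library 219). For both ratios every ductal library stayed apart from every hepatocyte library. The exact permutation p was thus the smallest that 4 against 4 libraries allow, and no larger difference could lower it.

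With the library number as a replicate block, 16 genes of the families were higher and 2 lower in hepatocyte-derived cells than in hepatocytes. There the values did not settle whether the numbers pair the samples (correlations 0.0208 to 0.193, best with the own number in 1 of 3 pairs). S100a10 was at -0.37 (adjusted p 0.0538), and S100a4, S100a8 and S100a9 were called at 1.87, 2.91 and 2.99 (adjusted p 1.81e-04, 1.80e-04 and 2.65e-04). The block gave 20 and 2 in cholangiocyte-derived cells over hepatocytes and 1 and 7 between the ductal populations, and changed no call beyond these and those given with the results. Values for single genes kept their direction and side of the threshold in 1739 recomputed results. The other sign was seen in 37 recomputed values, 7 of them of called values (those above) and 30 of values not called as reported; 8 of the 37 came with rescaling, 12 with quantile normalization and 17 with other settings. Among the 30, Anxa1 (-0.25), Anxa8 (-0.021), Anxa9 (-0.42) and S100a13 (-0.47) turned negative after rescaling in hepatocyte-derived cells over hepatocytes, and S100a13 (-0.45) in cholangiocyte-derived cells over hepatocytes. RPKM with 2 decimals limits genes near 0: 1 read was worth about 0.02 to 0.03 RPKM for Anxa8.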
